A study of Mus musculus with 10 samples.

Results

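The genes described here encode the transporters that carry glutamate across brain membranes: the sodium-coupled uptake carriers Slc1a1, Slc1a2, Slc1a3 and Slc1a6, their neutral amino acid relatives Slc1a4 and Slc1a5, the cystine-glutamate exchanger Slc7a11, and the vesicular loaders Slc17a6, Slc17a7 and Slc17a8. They were taken by gene symbol from the deposited table, for their function but with earlier results of these data known, and make up 10 of its 25050 genes. All 10 had enough counts to be tested, among 14526 tested genes. The samples were 5 wildtype (Abcc5+/+) and 5 Abcc5 knockout (Abcc5-/-) brains of the FVB/NJ background, each labelled as a whole brain and frozen on dry ice after the mouse had been killed with carbon dioxide. Abcc5 encodes an efflux pump of the ATP-binding cassette family, which the study examined as a carrier of glutamate conjugates. The age and sex of the mice and the way the knockout allele was made are not stated in the labels.

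Glutamate released at synapses is cleared by uptake carriers rather than broken down outside the cell. Most of this uptake falls to astrocytes, which turn glutamate into glutamine and return it to neurons, where it becomes glutamate again and is packed into synaptic vesicles by the vesicular transporters. The cystine-glutamate exchanger works in the other direction, releasing glutamate in return for cystine, the precursor of glutathione.

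Levels are given as CPM, the usual expression of a gene's counts relative to the library total, after trimmed-mean scaling of the libraries, and total counts ran from 7731294 to 23588335 per library. The Abcc5 transcript was at 299 to 326 CPM in wildtype and 211 to 226 CPM in knockout brains, so the genotypes did not overlap, although the transcript was still present in knockout brains. Knockout replicate 3 stood apart from the other 9 libraries before any comparison was made. The summed level of 7 cerebellar granule cell markers was 83.8 CPM in it, against 932 to 1142 CPM elsewhere, and that of 10 hindbrain markers was 4.75 CPM against 59.9 to 98.0 CPM. Slc6a5 was 4.62 of those 4.75 CPM. The serotonergic and cholinergic neuron markers summed to 41.4 CPM in the same library, within the wildtype range of 37.8 to 43.8 CPM. The label of a whole brain is therefore not matched by the cerebellar and hindbrain markers used here, and values without this library are given where it matters. Because the tissue is bulk brain, fewer cells of a type and less RNA per cell cannot be told apart.

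No change between the genotypes was detected in the 10 transporter genes. None passed an adjusted p of 0.05 in edgeR's quasi-likelihood test, where 1.18% of all tested genes did (171 of 14526, of which 31, or 0.213%, were higher and 140, or 0.964%, lower in knockout). An unadjusted p under 0.05 was reached by 2 members, Slc7a11 (lower) and Slc17a8 (higher), against 14.8% of all tested genes. The wildtype and knockout values overlapped for every one of the 10 genes, whereas 4.19% of all tested genes had groups without overlap (1.54% higher and 2.64% lower in knockout). The log2 fold change was above 0 for 6 members (51.6% of all tested genes) and below 0 for 4, with a median log2 fold change of 0.022 beside 0.0042 over all tested genes. In the authors' deposited table the adjusted p-values of the 10 genes ran from 0.238 for Slc7a11 to 0.974 for Slc17a6.

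For 6 of the genes (Slc1a1, Slc1a2, Slc1a3, Slc1a4, Slc17a6 and Slc17a7) the 95% interval of the difference lay within 20% of the wildtype level in either direction. The narrowest was that of Slc17a6, from -6.12% to 6.96%. The intervals of Slc1a5, Slc1a6, Slc7a11 and Slc17a8 reached beyond 20%. That of Slc1a6 rested on 1 library, since its SE fell from 0.22 to 0.065 without knockout replicate 3.

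**Figure D1:**
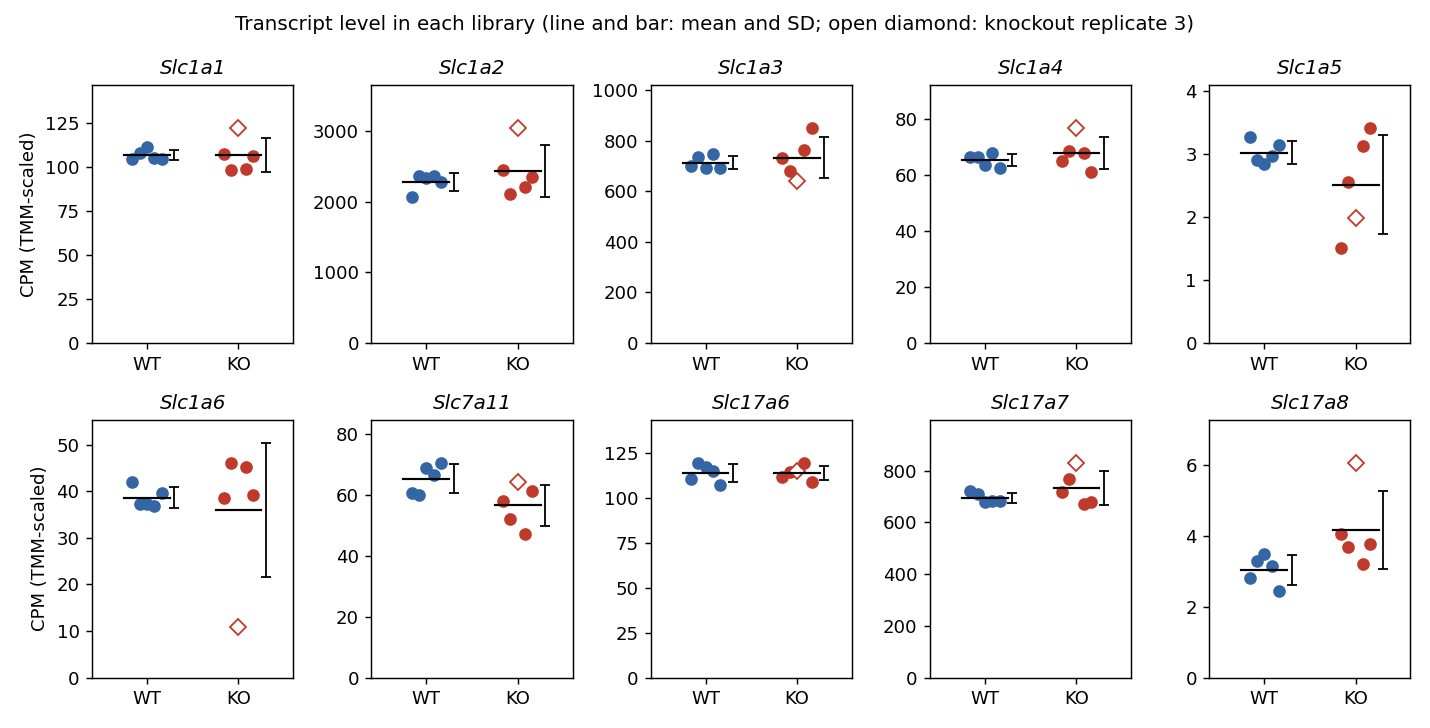
Level of each transporter gene in CPM (vertical axes start at 0) in 5 wildtype (WT) and 5 knockout (KO) brains. Points are libraries, lines are group means, bars are SDs, and the open diamond is knockout replicate 3, which is the highest of the 10 libraries for 5 genes and the lowest for 2.

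Slc1a2 (ENSMUSG00000005089, chromosome 2, 102498816 to 102630941 in the deposited coordinates, whose genome build is not named) encodes GLT-1, the main glutamate uptake carrier of forebrain astrocytes. In wildtype replicates 1 to 5 its level was 2060.3, 2363, 2327, 2362 and 2271 CPM. In knockout replicates 1 to 5 it was 2446.5, 2103, 3042, 2206.5 and 2344 CPM. Knockout replicate 3 was far above the other 9 libraries, which mixed freely between the genotypes. The means were 2277 ± 127 and 2428 ± 367 CPM (SD, n = 5 each), with a log2 fold change of 0.093 (SE 0.080, edgeR adjusted p 0.628). Without knockout replicate 3 the log2 fold change was 0.00017 (95% interval -0.10 to 0.10).

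Slc1a3 (ENSMUSG00000005360, chromosome 15, 8584124 to 8660764) encodes GLAST, the astrocyte uptake carrier that prevails in the cerebellum, where the Bergmann glia around Purkinje cells carry it. Wildtype replicates 1 to 5 had 702, 736, 692, 747 and 691 CPM, and knockout replicates 1 to 5 had 733, 681.5, 640.2, 765 and 851 CPM. The knockout values were the more spread out: replicate 3 was the lowest of all 10 libraries and replicate 5 the highest. The means were 714 ± 25.8 and 734 ± 81.0 CPM (SD, n = 5 each), and the log2 fold change was 0.041 (SE 0.063, edgeR adjusted p 0.818). The direction depended on single libraries, with a log2 fold change of 0.086 without knockout replicate 3 and -0.020 without knockout replicate 5.

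Of 12 tested astrocyte markers none was called. Their median log2 fold change was 0.031. When knockout replicate 3 was left out it was 0.097, beside 0.0065 over all tested genes, and again none was called. In that fit 9 markers were above 0, and Aqp4, Gja1 and Gjb6 were below (-0.099, -0.089 and -0.042). Their summed level was 3229 to 3440 CPM in wildtype and 2841 to 3858 CPM in knockout brains, with the lowest value in knockout replicate 3.

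Slc1a1 (ENSMUSG00000024935, chromosome 19, 28909539 to 28988450) encodes EAAC1, an uptake carrier found widely in neurons, which also brings in cysteine. Its levels were 104, 108, 111, 105 and 105 CPM in wildtype replicates 1 to 5 and 107, 98.4, 122, 98.7 and 106 CPM in knockout replicates 1 to 5. Apart from knockout replicate 3, at the top, and replicates 2 and 4, below the wildtype range, the knockout brains lay among the wildtype brains. The means were 106.6 ± 2.91 and 106.5 ± 9.60 CPM (SD, n = 5 each), with a log2 fold change of -0.0068 (SE 0.056, edgeR adjusted p 0.976), a value that changed sign with the choice of libraries.

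Slc1a6 (ENSMUSG00000005357, chromosome 10, 78243241 to 78277570) encodes EAAT4, the uptake carrier of Purkinje cells. Wildtype replicates 1 to 5 had 42.0, 37.2, 37.3, 36.9 and 39.7 CPM. Knockout replicates 1 to 5 had 38.6, 46.1, 10.8, 45.2 and 39.1 CPM. In 4 knockout brains the level was within or a little above the wildtype range, and in replicate 3 it was far below every other library. The means were 38.6 ± 2.21 and 36.0 ± 14.5 CPM (SD, n = 5 each), with a log2 fold change of -0.056 (SE 0.22, edgeR adjusted p 0.946). Without knockout replicate 3 the knockout mean was 42.2 ± 3.98 CPM (SD, n = 4), and the log2 fold change turned to 0.14 (95% interval 0.0079 to 0.28, edgeR adjusted p 0.25). Wildtype replicate 1 and knockout replicates 2 and 4 were then the highest libraries, and they also had the most counts. The part of depth in this difference was not tested.

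The Purkinje cell markers fell away in the same library. The summed level of 8 such markers was 1018 CPM in knockout replicate 3 and 2194 to 2459 CPM in the other 9 libraries. Most of what remained in knockout replicate 3 was Itpr1 at 718, Calb1 at 130 and Rgs8 at 123 CPM. Pcp2, a modulator of G protein signalling made almost only by Purkinje cells, was at 0.396 CPM there and at 26.3 CPM or more in the other knockout brains. None of the 8 markers was called (median log2 fold change -0.093, and 0.10 without that library).

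**Figure D2:**
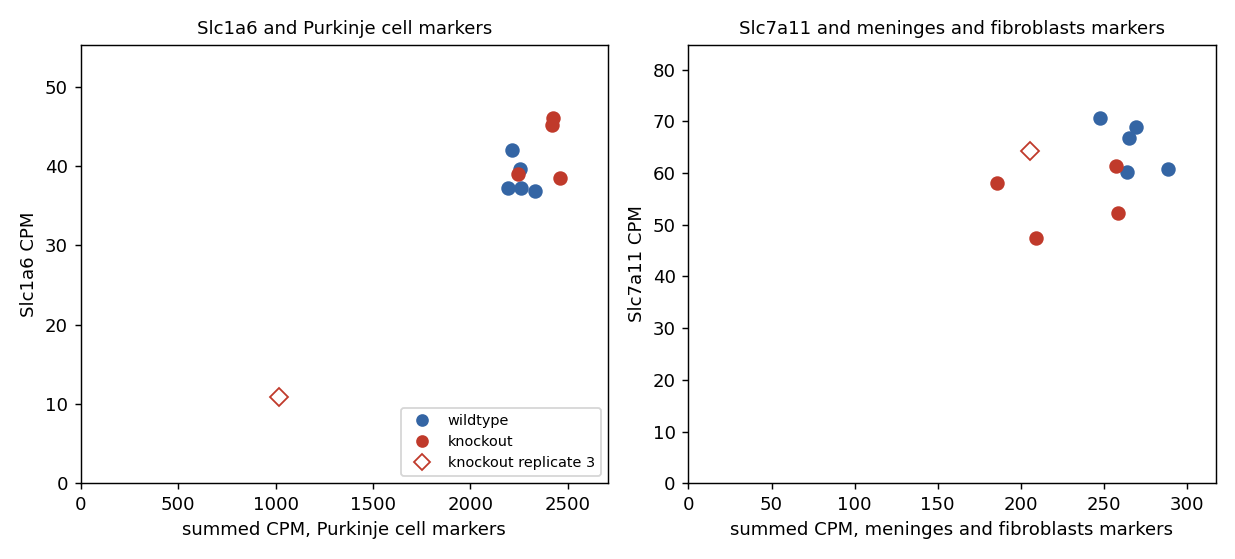
Left, Slc1a6 level against the summed level of 8 Purkinje cell markers, and right, Slc7a11 level against that of 12 markers of meninges and fibroblasts, all in CPM, with 1 point per library. Knockout replicate 3 (open diamond) stands alone at 1018 CPM of Purkinje cell markers and 10.8 CPM of Slc1a6, while on the right the libraries of both genotypes form no single line.

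Slc1a4 (ENSMUSG00000020142, chromosome 11, 20202183 to 20232716) encodes ASCT1, which exchanges serine, alanine and other small neutral amino acids and carries no glutamate at a meaningful rate. Its levels were 66.4, 66.2, 63.6, 68.0 and 62.4 CPM in wildtype replicates 1 to 5 and 65.0, 68.4, 76.8, 67.9 and 60.9 CPM in knockout replicates 1 to 5. Knockout replicate 3 was again the highest library, and the others spanned the same range in both genotypes. The means were 65.3 ± 2.26 and 67.8 ± 5.84 CPM (SD, n = 5 each), with a log2 fold change of 0.051 (SE 0.056, edgeR adjusted p 0.722), and 0.011 without knockout replicate 3.

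Slc1a5 (ENSMUSG00000001918, chromosome 7, 17366695 to 17383623) encodes ASCT2, a glutamine exchanger that is sparse in adult brain. It was among the scarcest of the 10 transcripts, with 13 to 74 counts per library. The wildtype brains held 3.27, 2.91, 2.84, 2.97 and 3.15 CPM and the knockout brains 1.51, 2.55, 1.98, 3.13 and 3.42 CPM, both from replicate 1 to 5. Knockout replicates 1, 2 and 3 lay below all wildtype brains, replicate 4 lay within their range and replicate 5 above it. The means were 3.03 ± 0.180 and 2.52 ± 0.792 CPM (SD, n = 5 each), and the log2 fold change was -0.22 (SE 0.18, edgeR adjusted p 0.595). It was -0.12 without knockout replicate 1 and -0.35 without knockout replicate 4.

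Slc7a11 (ENSMUSG00000027737, chromosome 3, 50168858 to 50247535) encodes xCT, the light chain of the cystine-glutamate exchanger, whose gene is switched on by the transcription factors ATF4 under amino acid shortage and NRF2 under oxidative stress. It is shown with its promoter because it had the smallest p of the 10 genes. The promoter position below is in GRCm38.p6, and the deposited coordinates above do not match that build, so the positions cannot be compared. The 250 bases before its start, from RefSeq (GRCm38.p6, chr3:50443614-50443863, minus strand, printed 5′ to 3′), hold the letters TGATGNAA, the core of the element bound by ATF4, at 2 places, marked in capitals:
Slc7a11: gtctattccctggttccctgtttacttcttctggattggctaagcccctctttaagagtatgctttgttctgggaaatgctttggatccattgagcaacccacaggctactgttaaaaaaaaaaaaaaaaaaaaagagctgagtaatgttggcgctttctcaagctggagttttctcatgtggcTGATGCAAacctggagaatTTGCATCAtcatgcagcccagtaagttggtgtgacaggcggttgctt
The first match begins at position -66 from the start and the second at -47, and the second reads the same letters on the opposite strand. With both strands searched, TGATGNAA occurred in 3.45% of 32851 such windows, and among the 9 members with a window in the RefSeq table (all except Slc1a5) only in that of Slc7a11. TGANNNNGC, the core of the element bound by NRF2, was matched in any window of 5 of the 9 members (Slc1a3, Slc1a4, Slc7a11, Slc17a6 and Slc17a8). It was matched in 35.2% of all windows, counted singly. Slc17a6 and Slc17a8 have 2 windows each, so the share of members and that of windows are not the same measure. A match describes letters and not a bound site.

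The Slc7a11 level was 60.9, 60.2, 68.9, 66.7 and 70.7 CPM in wildtype replicates 1 to 5. It was 58.0, 52.3, 64.2, 47.4 and 61.4 CPM in knockout replicates 1 to 5. Knockout replicates 1, 2 and 4 were below every wildtype brain, and replicates 3 and 5 were inside the wildtype range. The means were 65.5 ± 4.73 and 56.7 ± 6.83 CPM (SD, n = 5 each), 13.5% apart, with a log2 fold change of -0.22 (SE 0.078, 95% interval -0.39 to -0.056). The unadjusted p was 0.0122 and the edgeR adjusted p 0.197, so the difference did not pass, and 12.3% of all tested genes had a fold change of at least this size.

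Leaving out knockout replicate 3 brought Slc7a11 to a log2 fold change of -0.27 and an edgeR adjusted p of 0.0529. Limma-voom with sample weights, which counts an outlying library for less, called it (log2 fold change -0.27, adjusted p 0.0347). Calls rose among all tested genes too, from 171 in the main fit to 341 without knockout replicate 3 and 563 with sample weights. Over the alternatives tried the adjusted p otherwise ran up to 0.48. In the 3 libraries with at least 19795743 counts (wildtype replicate 1 and knockout replicates 2 and 4) the log2 difference was -0.29. In the 7 shallower ones it was -0.12, with an edgeR adjusted p of 0.48. With depth class as a term in the fit of all 10 libraries it was -0.18 (SE 0.056, edgeR adjusted p 0.139).

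Other genes switched on by ATF4 and NRF2 were examined beside Slc7a11. Of 16 tested genes in the ATF4 list none was called, 10 were above 0, and the median log2 fold change was 0.025. Atf3, a transcription factor of the stress response, had the smallest p (1.64 against 0.878 CPM, log2 fold change -0.76, edgeR adjusted p 0.229), and Phgdh, the first enzyme of serine synthesis, came next (log2 fold change 0.14, edgeR adjusted p 0.34). The most abundant were Aars, which charges the alanine tRNA, at 185 and 189 CPM, and Psat1, also of serine synthesis, at 115 and 119 CPM. Of 10 tested genes in the NRF2 list none was called, and the median was -0.019. Its lowest p-values were those of the heme carrier gene Slc48a1 (log2 fold change 0.087, edgeR adjusted p 0.382) and of Txnrd1, a thioredoxin reductase (-0.078, 0.433), and Srxn1, which repairs peroxiredoxins, was at 101 CPM in both genotypes.

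The meninges are a site of high Slc7a11 expression, so their markers are set beside it. All 12 markers of meninges and fibroblasts had a log2 fold change below 0, with a median of -0.21, although none was called (5 had an unadjusted p under 0.05). Without knockout replicate 3, Col3a1, a fibrillar collagen, was called (edgeR adjusted p 0.0428), in a fit that called 341 of all tested genes. The summed level was 248 to 288 CPM in wildtype and 186 to 258 CPM in knockout brains, and no marker was at 0 in any group. In knockout replicates 1 to 5 the sums were 186, 258, 205, 209 and 257 CPM, beside Slc7a11 levels of 58.0, 52.3, 64.2, 47.4 and 61.4 CPM. Replicates 1 and 4 were low in both, replicate 5 was within the wildtype range in both, replicate 2 was low in Slc7a11 alone and replicate 3 in the markers alone. The part of the meninges in the Slc7a11 difference was not tested.

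**Figure D3:**
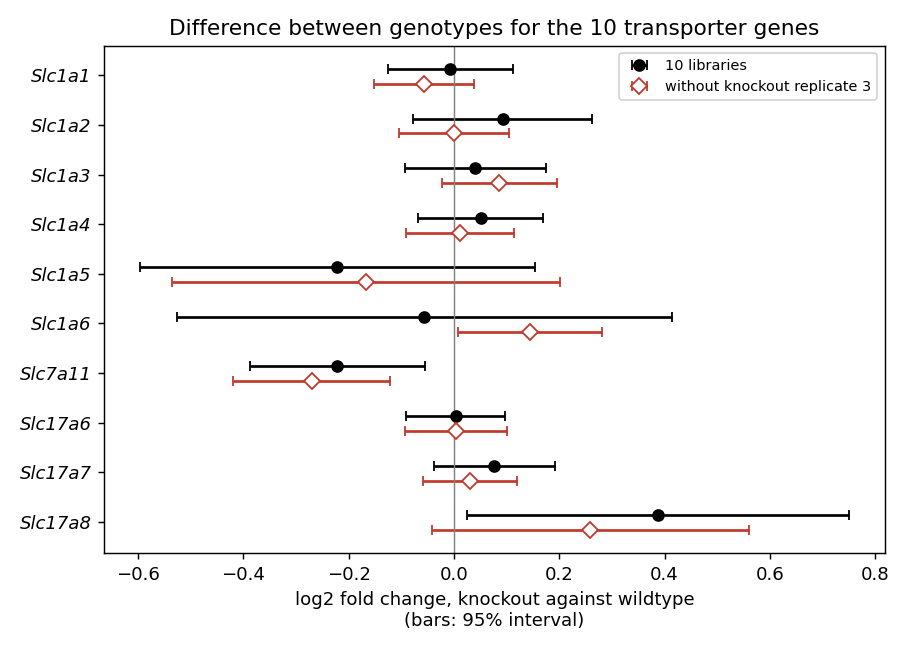
Log2 fold change between knockout and wildtype for the 10 transporter genes, in all 10 libraries (black) and without knockout replicate 3 (red, open), with 95% intervals. Slc7a11 (-0.22 and -0.27) and Slc1a5 (-0.22 and -0.17) lie lowest, level with each other in all 10 libraries. Slc17a8 lies highest (0.39 and 0.26), and Slc1a6 changes side from -0.056 to 0.14.

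Of the vesicular transporters, Slc17a7 (ENSMUSG00000070570, chromosome 7, 52419291 to 52431508) encodes VGLUT1, which fills vesicles in neurons of the cortex and hippocampus and in cerebellar granule cells. Wildtype replicates 1 to 5 had 720.1, 711, 681, 682 and 683 CPM and knockout replicates 1 to 5 had 716, 766, 831, 673 and 680.2 CPM. Knockout replicates 2 and 3 exceeded all wildtype brains and replicates 4 and 5 lay just below them. The means were 695 ± 18.7 and 733 ± 66.0 CPM (SD, n = 5 each), with a log2 fold change of 0.077 (SE 0.054, edgeR adjusted p 0.54) that shrank to 0.030 without knockout replicate 3. In that library the 9 forebrain excitatory neuron markers summed to 1002 CPM, against 714 to 853 CPM in the other 9, while its granule cell markers were the lowest. The part of this mix in the Slc17a7 level was not tested.

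Slc17a6 (ENSMUSG00000030500, chromosome 7, 58877200 to 58926495) encodes VGLUT2, the vesicular transporter of the thalamus, hypothalamus and brainstem. Its levels were 110.25, 119, 117, 115 and 107 CPM in wildtype replicates 1 to 5 and 112, 114, 115, 119 and 109 CPM in knockout replicates 1 to 5. The ranges of the genotypes coincided almost exactly, and knockout replicate 3 was in the middle. The means were 113.7 ± 5.05 and 113.7 ± 3.97 CPM (SD, n = 5 each), with a log2 fold change of 0.0029 (SE 0.044, edgeR adjusted p 0.989). The 6 tested thalamic markers had a median of 0.054 with none called, and their sum was 169 to 189 CPM in wildtype and 180.4 to 193 CPM in knockout brains.

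Slc17a8 (ENSMUSG00000019935, chromosome 10, 89036765 to 89083998) encodes VGLUT3, which is found in sparse neurons that also use serotonin, acetylcholine or GABA. It was covered by 21 to 81 counts per library. The wildtype brains had 2.82, 3.31, 3.48, 3.14 and 2.45 CPM and the knockout brains 4.05, 3.69, 6.07, 3.22 and 3.78 CPM, both from replicate 1 to 5. All knockout brains except replicate 4 were above the highest wildtype brain, and replicate 3 was the highest by far. The means were 3.04 ± 0.411 and 4.16 ± 1.11 CPM (SD, n = 5 each), with a log2 fold change of 0.39 (SE 0.17, 95% interval 0.025 to 0.75), an unadjusted p of 0.0379 and an edgeR adjusted p of 0.307.

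Without knockout replicate 3 the Slc17a8 difference was 0.26 (95% interval -0.042 to 0.56). In the 3 deep libraries it was 0.28 and in the 7 shallower ones, knockout replicate 3 included, 0.54. With depth class as a term in the fit of all 10 libraries it was 0.46 (SE 0.16, edgeR adjusted p 0.175). Of the serotonergic and cholinergic markers 4 were tested and none was called (median 0.10), with sums of 37.8 to 43.8 CPM in wildtype and 41.4 to 45.5 CPM in knockout brains. All 4 had a log2 fold change above 0. Tph2, the enzyme that starts serotonin synthesis in neurons, was at 12.6 and 12.9 CPM (log2 fold change 0.039). The values were 0.029 for Slc5a7, 0.17 for Slc6a4 and 0.20 for Chat.

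Differences of mean log2 CPM took opposite signs in the depth classes for some members. For Slc1a6 the edgeR fit of the 7 shallower libraries gave a log2 fold change of -0.34. In the 3 deep and then the 7 shallower libraries the log2 differences were -0.083 and 0.059 for Slc1a1, 0.12 and -0.57 for Slc1a6, 0.084 and -0.037 for Slc17a6, and -0.0039 and 0.10 for Slc17a7, the first of each pair without and the second with knockout replicate 3.

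To compare the genes with each other, levels were divided by the length of the longest principal transcript in GENCODE M21. On this scale of CPM per kilobase the wildtype level was 238 ± 6.43 for Slc17a7, 196 ± 10.9 for Slc1a2 and 171 ± 6.21 for Slc1a3 (SD, n = 5 each). A middle group followed, with 28.1 ± 0.765 CPM per kilobase for Slc1a1, 27.5 ± 1.22 for Slc17a6, a range of 18.2 to 20.7 for Slc1a6 and 16.6 ± 0.575 for Slc1a4. Slc7a11 had 7.10 ± 0.513, Slc1a5 1.09 ± 0.0650 and Slc17a8 0.682 ± 0.0922 CPM per kilobase. The glial uptake carriers and the vesicular loader of forebrain and granule cells thus made up the top of the order.

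By this length, neighbours whose wildtype ranges overlapped were Slc1a2 and Slc1a3, and Slc1a1 and Slc17a6. With merged exons as the length neither pair overlapped, at 173 CPM per kilobase for Slc1a2 and 83.6 for Slc1a3, and 12.9 for Slc1a1 and 21.1 for Slc17a6. Instead Slc1a6 and Slc1a4 overlapped, as did Slc1a5 and Slc17a8. Slc1a2 then stood above Slc17a7 (129) and Slc1a1 below Slc1a4 (16.6), so the places of these genes and the ratios between them depend on the length chosen. Per length of the principal transcript, Slc17a7 was 8.69 ± 0.447 times the level of Slc17a6 in wildtype and 9.16 ± 0.842 times in knockout brains, with the highest ratio, 10.3, in knockout replicate 3. On the same scale Slc1a2 was 1.05 to 1.21 times the level of Slc1a3 in wildtype brains, and in knockout replicate 3, where cerebellar transcripts were scarce, the ratio was 1.71.

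**Figure D4:**
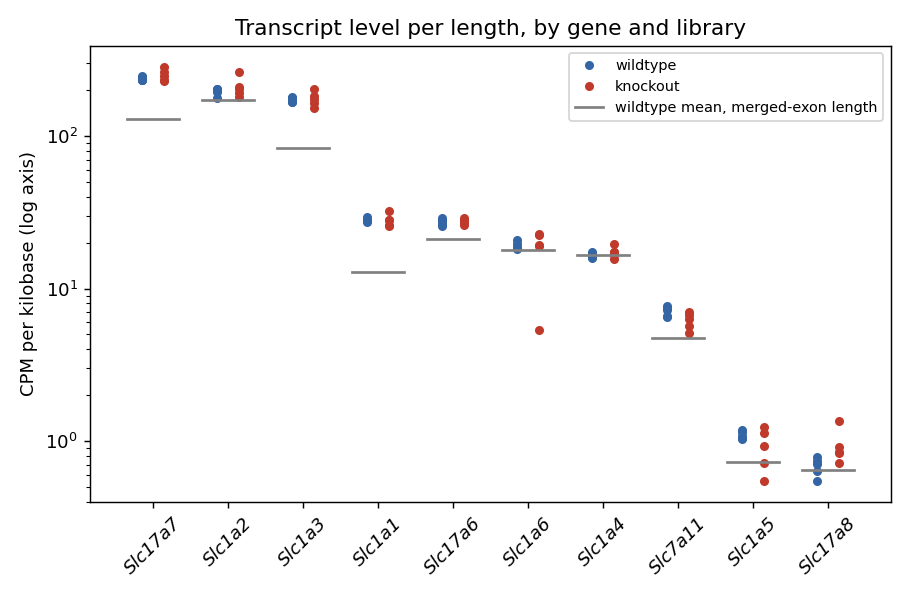
Level per kilobase of transcript (log axis) for each gene, ordered by the wildtype mean, with 1 point per library in wildtype (blue) and knockout (red) and a grey line for the wildtype mean when merged exons give the length. Slc17a7, Slc1a2 and Slc1a3 lie on top, and Slc1a5 and Slc17a8 lie at the bottom, near 1 CPM per kilobase.

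Knockout replicate 3 set much of the variation in some members and little of it in others. It had the highest value of the 10 libraries for Slc1a1, Slc1a2, Slc1a4, Slc17a7 and Slc17a8 (5 of 10, where 19.4% of all tested genes did) and the lowest for Slc1a3 and Slc1a6 (2 of 10, against 19.2%). Relative to the other knockout brains it differed most in Slc1a6, by -1.95 on the log2 scale, followed by Slc17a8 (0.70), Slc1a2 (0.42) and least in Slc17a6 (0.015). In wildtype brains the coefficient of variation was 2.70% to 7.22% for the 8 members above 30 CPM. In knockout brains it reached 40.2% for Slc1a6 and 15.1% for Slc1a2, and without knockout replicate 3 these were 9.42% and 6.64%.

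The genes most like each member were found by Pearson's correlation of log2 CPM over the 10 libraries, among tested genes with a mean of at least 1 CPM. Points share library composition, so these values are descriptions. Slc1a6 was closest to Homer3 and Grid2ip, both known from Purkinje cell synapses (r = 0.995 and 0.995), and without knockout replicate 3 these fell to 0.86 and 0.93. Slc17a7 was closest to Lingo1 and Nrgn (0.97 and 0.97), Slc1a2 to Ssbp2 and Lix1 (0.96 and 0.96), and Slc1a1 to Dnalc1 and Kcnh6 (0.95 and 0.95). Slc1a3 kept its closeness to Atp13a4 and Fam107a, genes of astrocytes, without that library (0.98 and 0.96 with it, 0.97 and 0.95 without). Slc7a11 did so with Tacc1 and Spred1 (0.98 and 0.97 with it, 0.98 and 0.97 without). Slc1a4 was closest to Alk and Dact3 (0.97 and 0.96), Slc1a5 to Lyar and 2810002D19Rik (0.97 and 0.95), Slc17a6 to Slc29a2 and B3gntl1 (0.90 and 0.87) and Slc17a8 to Shc2 and Gpr83 (0.98 and 0.95).

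The members also differed from each other in how they varied. Slc1a1 and Slc1a6, the carriers of neurons at large and of Purkinje cells, ran against each other over the 10 libraries (r = -0.88) and over the 9 without knockout replicate 3 (r = -0.90). Slc1a2 ran with Slc1a1 (r = 0.88, and 0.64 over 9 libraries) and against Slc1a6 (r = -0.92, and -0.79 over 9 libraries). Among those 9, the 3 deep libraries were the highest in Slc1a6, at 42.0 to 46.1 CPM. They were also the lowest in Slc1a1 (98.4 to 104.36 CPM) and in Slc1a2 (2060.3 to 2206.5 CPM). The part of depth in these correlations was not tested. The start regions of the members differed too: the 250 bases before the start held 27 CpG sites in Slc1a1, 26 in Slc1a6 and 16 in Slc1a4, but 1 in Slc1a2, 2 in Slc1a3 and 2 in Slc7a11, where the median of all windows was 6.

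The 5 lists of related genes were the family relatives, the glutamate-glutamine cycle, the transporter partners with the driving pumps, and the ATF4 and NRF2 lists. Of their 67 tested genes 1 was called (1.49%, against 1.18% of all tested genes). An unadjusted edgeR p under 0.05 was reached by 6 (8.96%, against 14.8%). The called gene was Slc38a2, a carrier that supplies neurons with glutamine, which fell from 244 to 198 CPM (log2 fold change -0.30, edgeR adjusted p 0.00891), and -0.27 without knockout replicate 3, with an edgeR adjusted p of 0.00349. In the 7 shallower libraries no gene of the glutamate-glutamine cycle list was called, Slc38a2 included, where 31 of all tested genes were. In all 10 libraries 1 of the 17 tested genes of the cycle fell and none rose, with a median log2 fold change of 0.0063. Glul, the glutamine synthetase of astrocytes, was at 718 and 729 CPM, and Gad1, which makes GABA from glutamate, was at 521 and 477 CPM (log2 fold change -0.13, edgeR adjusted p 0.184).

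Among 8 tested family relatives none was called (median 0.021). Slc7a6 and Slc7a5, light chains of cationic and large neutral amino acid carriers, had log2 fold changes of -0.16 and 0.20 (edgeR adjusted p 0.254 and 0.271). Slc3a2, the heavy chain that pairs with Slc7a11, was at 91.3 and 89.9 CPM, and Slc32a1, the vesicular carrier of GABA and glycine, at 111 and 112 CPM. Of 16 genes for transporter partners and for the pumps that drive uptake and loading none was called (median -0.030). The sodium pump subunit Atp1b1 had mean levels of 1687 (wildtype) and 1653 (knockout) CPM, and the lowest p-value belonged to Sept2, a septin (log2 fold change -0.086, edgeR adjusted p 0.439).

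The remaining marker lists set the tissue background. The medians were 0.018 for forebrain excitatory neurons, -0.096 for cerebellar granule cells, 0.025 for hindbrain, 0.074 for inhibitory neurons, 0.05 for oligodendrocytes, 0.026 for endothelium, 0.0091 for choroid plexus and 0.32 for blood, with no gene called in any of them. In the microglial list 2 of 8 tested genes, C1qb and C1qc, rose (median 0.23). Without knockout replicate 3, 1 granule cell gene (Cbln3, higher), 1 microglial gene (C1qa, higher), 1 thalamic gene (Rgs16, lower) and 1 meningeal gene (Col3a1, lower) were called in addition. The granule and Purkinje cell medians turned to 0.069 and 0.10. That fit called 341 of all tested genes (93 higher and 248 lower), against 171 in all 10 libraries.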

How the data were processed

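Polyadenylated RNA of 10 brains was sequenced, per the labels' protocols. The deposited table holds whole-number counts per Ensembl gene and library; the submitters' processing notes name TopHat2 2.0.6, HTSeq, edgeR and limma, with no role, and the genome build and strand setting are not given in the sources used here. The authors' log2 fold change and adjusted p-value were deposited with 629 and 8 damaged cells, and only intact cells were read. A further 10 per-library columns had lost decimal points and were not used.

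Counts were tested in R 4.3.3 with edgeR 4.0.16 (filterByExpr, minimum count 10 and total 15; TMM scaling; quasi-likelihood test with genotype as the only term; Benjamini-Hochberg over 14526 genes). SEs and 95% intervals come from the F statistic. Log2 CPM used a prior count of 2. Precision is set by the spread between brains and, for Slc1a5 and Slc17a8, by few counts. Counts of each replicate pair differed beyond sampling noise (smallest chi-square per degree of freedom 1.275). The method was checked on simulated data. Alternatives were other scalings, filters and tests (limma 3.58.1, DESeq2 1.42.0), the replicate block, leaving out each library, and depth classes. Merged-exon lengths, differences within depth classes and lists without knockout replicate 3 were added after seeing the data. Members, gene lists and tests were chosen with earlier results of these data known. Named genes were Abcc5, the members, the 2 genes most like each member, and in each pathway list the called genes, the 2 smallest p-values and the 2 most abundant genes; markers printed singly were chosen after their values were seen. Overlapping genes on either strand could share reads with Slc1a1, Slc1a2, Slc1a3, Slc7a11, Slc17a6 and Slc17a7. Some genes that the rule for named genes picks are not reported here.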

Additional observations from a re-analysis of the deposited data

Results flagged for a closer look

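The Slc1a6 level of knockout replicate 3, 10.8 CPM, was far from the other 4 knockout brains (38.6 to 46.1 CPM) by Dixon's criterion for 5 samples. The criterion was applied to each member in each genotype, 20 groups in all, and chance alone flags about 1 in 20. The same library had 1018 CPM of Purkinje cell markers against 2242 to 2459 CPM in the other knockout brains.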

How the results depend on the processing

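No member was called in any alternative except limma-voom with sample weights, which called 1 (Slc7a11, log2 fold change -0.27, adjusted p 0.0347). The DESeq2 Wald test gave Slc1a5 and Slc17a8 no adjusted p, so these could not be called there. Slc1a2, Slc1a4, Slc1a5, Slc7a11, Slc17a7 and Slc17a8 kept their direction in all 20 alternatives. Slc1a1 changed sign with upper-quartile scaling (0.010), in the 7 shallower libraries (0.061), with depth class as a term (0.016) and in a range of -0.058 to 0.022 with 1 library left out. Slc17a6 did so in the 7 shallower libraries (-0.038), with depth class (-9.77e-05), with sample weights (-0.0050) and with 1 library left out (-0.020 to 0.019). Slc1a6 reached 0.057 with sample weights and -0.34 in the 7 shallower libraries. With 1 library left out Slc1a6 ran from -0.17 to 0.14 and Slc1a3 from -0.020 to 0.086. The count of called genes (171, 31 higher and 140 lower) was 63 (6 and 57) at an adjusted p of 0.01, 373 (102 and 271) at 0.1, 90 (8 and 82) with the replicate block, 31 (5 and 26) in the 7 shallower libraries, 261 (49 and 212) by DESeq2 and 563 (171 and 392) with sample weights. With depth class as a term 48 were higher. With 1 library left out the count ran from 76 to 341, with 8 to 93 higher and 67 to 248 lower. The cause of these shifts was not tested. Replicate numbers are shared by the labels only as numbers: same-numbered brains had correlations of -0.14 to 0.089 after removal of group means. Low counts limit Slc1a5 and Slc17a8.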
